A study of Mus musculus with 16 samples.

Results

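The leukocyte miRNAs mmu-miR-223, mmu-miR-142-3p, mmu-miR-142-5p, mmu-miR-150 and mmu-miR-155 were followed in mouse sciatic nerves with and without Dicer in Schwann cells (the prefix for mouse is left out from here on). They were chosen by name, as 5 of the 650 miRNA names on the array, and each was read by 2 probes of 10 spots. Sciatic nerves came from Dicer fl/fl Dhh-Cre+ mutants (fl) and from Dicer wt/fl Dhh-Cre+ littermate controls (wt), either at day 17 of gestation (E17) or 4 days after birth (P4). Each of the 4 groups held 4 mice, and each mouse had an array of its own. By the paper, each group held males and females, split alike in both genotypes at E17 but not at P4. The labels do not give the sex of each mouse, and sex was not modelled. All mice descended from the Dicer1tm1Bdh/J strain, and all, the controls included, carried the Dhh-Cre transgene and at least 1 floxed Dicer allele. The Dhh promoter drives Cre in Schwann cells, so the other cells of the nerve, blood cells and endothelium among them, were meant to keep Dicer in both genotypes.

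Mature miRNAs are cut by Dicer from hairpin precursors, and a mature strand recognises its targets mainly through bases 2 to 8, the seed. miR-223 is known as a miRNA of neutrophils and other myeloid cells, miR-142 is made from 1 hairpin in nearly all blood cell lineages, miR-150 marks mature lymphocytes, and miR-155 is induced in activated lymphocytes and macrophages. A peripheral nerve holds some resident macrophages and mast cells, and its vessels hold blood. The array measures RNA of the whole nerve, so more cells of a type and more of a miRNA per cell cannot be told apart.

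The mature sequences show which RNAs the probes address and that the measured miRNAs have unlike seeds. RefSeq (GRCm38.p6) held the mature strand of 4 of the 5 miRNAs, and they are given 5′ to 3′ with the seed in capitals. The names on the array are older than those in RefSeq, where miR-223 is miR-223-3p, miR-142 is miR-142a and miR-155 is miR-155-5p.
miR-223: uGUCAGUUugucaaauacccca
miR-142-3p: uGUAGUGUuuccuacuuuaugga
miR-142-5p: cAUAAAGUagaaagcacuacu
miR-155: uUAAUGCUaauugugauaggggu
No other mature mouse miRNA in that table had any of these 4 seeds. The strand of miR-223 lies at chrX:96242884-96242905 (plus strand) within the lncRNA gene F630028O10Rik, and that of miR-155 at chr16:84714143-84714165 (plus strand) within the lncRNA gene Mir155hg. Both strands of miR-142 come from 1 precursor of 64 bases at chr11:87756864-87756927 (plus strand), shown because its arms behaved differently on the array, with the 5p arm and then the 3p arm in capitals.
Mir142 hairpin: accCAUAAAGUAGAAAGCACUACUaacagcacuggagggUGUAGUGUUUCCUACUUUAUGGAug
Mir142b is annotated over the same bases on the minus strand.

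Of the 5 miRNAs, 3 counted as expressed, that is, the scanner software detected them on 50% or more of the arrays in 1 or more groups. miR-223 was detected on 16 of 16 arrays and miR-142-3p on 15 of 16. miR-155 was detected on no E17 array, on 1 of 4 wt-P4 arrays and on 3 of 4 fl-P4 arrays, and neither of its probes was well above background (a mark the scanner software gives each spot, here required of most spots of a probe) on any array. miR-142-5p and miR-150 were detected on 0 of 16 arrays, and none of their probes was well above background on any of them. Over the whole array, 281 of 650 miRNA names were expressed. All E17 arrays were on 1 slide and all P4 arrays on the other, so age and slide cannot be told apart, whereas both genotypes of an age shared a slide.

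The signal summed over all miRNAs ran from 36495 to 60374 intensity units in wt-E17, from 39097 to 50827 in fl-E17, from 122860 to 154076 in wt-P4 and from 56841 to 83630 in fl-P4. The fl-P4 arrays thus carried 0.513 times the summed signal of wt-P4 (exact two-sided permutation test, p = 0.0286, the smallest that 4 against 4 arrays can give), and the fl-E17 arrays 0.887 times that of wt-E17 (p = 0.400 by the same exact test). Of the 3 glial miRNAs checked, both that were expressed, the miR-338 strands, were lower in fl-P4 than in wt-P4, and the third, miR-219, was detected on no array. By the limits given below, both strands were called lower, beside 10.7% of all expressed miRNAs. Replicates of a group correlated at r of 0.972 to 0.998. The arrays wt-P4 3 and fl-P4 3 stood apart in having over 100 spots marked as non-uniform, and results were also computed without them.

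Levels are given first as log2 of the median spot signal after quantile normalization, which forces the same distribution on each array, and for the brighter probe of each miRNA. These medians include the background, which compresses differences of dim probes. For a call, the p-value from limma, adjusted by Benjamini-Hochberg over all 681 expressed probes, had to be 0.05 or less and the log2 difference 0.5 or more in size.

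**Figure D1:**
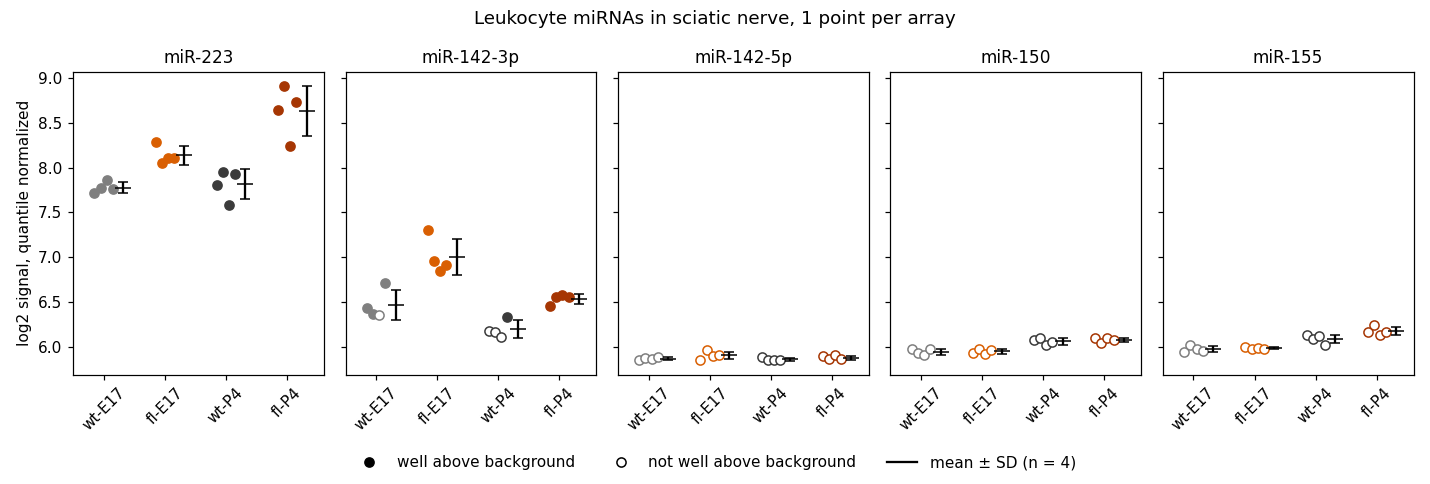
Log2 signal after quantile normalization (y axis) of the brighter probe of the 5 leukocyte miRNAs in each of the 4 groups (x axis), with 1 point per array, open where the probe was not well above background, and bars for the mean ± SD. All 16 points of miR-223 are filled, 12 of 16 of miR-142-3p, and none of the other 3 miRNAs.

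miR-223, the myeloid miRNA, was higher in mutant than in control nerves at P4. Its log2 signal was 7.80, 7.95, 7.59 and 7.92 in the wt-P4 arrays and 8.64, 8.91, 8.24 and 8.73 in the fl-P4 arrays. Every fl-P4 array lay above every wt-P4 array, with fl-P4 3 the lowest of its group and wt-P4 3 the lowest of its own. The difference was 0.81 on the log2 scale (SE 0.116, 95% interval 0.57 to 1.06, adjusted p = 6.48e-05 by limma, n = 4 per group), and it was called.

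The other probe of miR-223 was dimmer and its groups did not overlap either. It read 6.64 to 6.77 in wt-P4 and 7.03 to 7.25 in fl-P4. Its difference of 0.41 (SE 0.0438, adjusted p = 4.28e-06 by limma) was under the size limit. Across the 16 arrays the probes of miR-223 moved together (r = 0.951, a description over arrays that share the groups).

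At E17 miR-223 read 7.72, 7.77, 7.86 and 7.76 in the wt arrays and 8.28, 8.05, 8.10 and 8.10 in the fl arrays. The groups again did not overlap, but the difference of 0.36 (SE 0.116, 95% interval 0.11 to 0.61, adjusted p = 0.0670 by limma) was not called. The dimmer probe differed by 0.19 (SE 0.0438, adjusted p = 0.0177 by limma), which passed on p and was under the size limit.

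miR-142-3p, the pan-leukocyte miRNA, was higher in mutant than in control nerves at E17. Its log2 signal was 6.44, 6.37, 6.35 and 6.71 in the wt-E17 arrays and 7.30, 6.96, 6.84 and 6.91 in the fl-E17 arrays. The groups did not overlap, although wt-E17 4 stood apart from the other controls and close under the lowest mutant. The difference of 0.54 (SE 0.0959, 95% interval 0.33 to 0.74, adjusted p = 0.00436 by limma, n = 4 per group) was called. The call was lost in 5 other computations, 1 of them with a log2 limit of 1. Without fl-E17 1, the highest array, the difference was 0.44, with normexp background correction 0.38 and with the mean over both probes 0.40, each under the size limit. The methods' t-test, with the same adjustment added here, gave an adjusted p of 0.0682. The study's methods name no adjustment of p, so this is not the study's own limit. The dimmer probe differed by 0.26 (SE 0.0629, adjusted p = 0.0212 by limma), with overlapping groups.

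At P4 the same probe of miR-142-3p read 6.18, 6.17, 6.11 and 6.34 in the wt arrays, where it was well above background on 1 of 4, and 6.46, 6.56, 6.58 and 6.55 in the fl arrays, where it was on 4 of 4. The groups did not overlap. The difference of 0.34 (SE 0.0959, 95% interval 0.13 to 0.55, adjusted p = 0.0107 by limma) passed on p and was under the size limit. The dimmer probe differed by 0.17 (SE 0.0629, adjusted p = 0.0371 by limma) and was well above background on no P4 array.

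The 3p and 5p arms of the Mir142 hairpin printed above were thus unlike in detection. The 5p arm, the strand miR-142-5p, had gene signals (the scanner software's background-subtracted total over the probes of a miRNA) from -5.21 to 2.22 intensity units on the 16 arrays, and its brighter probe read from 5.85 to 5.96 in log2 signal. Negative signals occurred in 3 of the 4 groups and no fold was computed.

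miR-150, the lymphocyte miRNA, had gene signals from -0.141 to 10.9 intensity units over the 16 arrays and was likewise not detected. The other strand of its precursor, miR-150*, which RefSeq calls miR-150-3p, was detected on 4 of 4 arrays of wt-E17, fl-E17 and fl-P4 and on 0 of 4 of wt-P4. Its gene signal was 49.8 to 82.9 in wt-E17, 51.6 to 111 in fl-E17, 0.160 to 12.4 in wt-P4 and 13.6 to 38.4 in fl-P4. The fl-P4 arrays all lay above the wt-P4 arrays, while the E17 genotypes overlapped. The log2 difference of miR-150* between fl-P4 and wt-P4 was 0.38 for its brightest probe (SE 0.121, adjusted p = 0.0215 by limma), under the size limit. Its strand, shown because it was seen where the main strand was not, lies at chr7:45121798-45121819 (plus strand).
miR-150*: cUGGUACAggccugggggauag

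miR-155, the miRNA of activated lymphocytes and macrophages, stayed close to background. Its brighter probe read 6.13, 6.09, 6.12 and 6.03 in wt-P4 and 6.16, 6.24, 6.14 and 6.17 in fl-P4, without overlap. It read 5.94 to 6.02 in wt-E17 and 5.98 to 5.997 in fl-E17. As the probe was well above background on 0 of 16 arrays, these values compare signals at the background, and miR-155 counted as expressed only through its detection in fl-P4. Its differences are therefore given no p-value from limma and no reading. The other probe read 5.88 to 5.998 in wt-P4 and 5.85 to 6.04 in fl-P4, with overlap.

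Of the 3 expressed leukocyte miRNAs, 1 was called higher in the mutant at P4, miR-223, against 10.3% of all 281 expressed miRNAs. At E17 also 1 was called higher, miR-142-3p, against 3.56% of all expressed miRNAs. With so few members these counts were read only beside the background, and miR-155 was among the 3 only because of fl-P4, so the counts and the medians describe these miRNAs and support no difference. The median log2 difference of the 3 was 0.34 at P4, where the median of all 281 was 0.06, and 0.36 at E17, where it was -0.00429.

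After quantile normalization neither miRNA changed with age past both limits. In the controls miR-223 differed between P4 and E17 by 0.04 (95% interval -0.21 to 0.29, adjusted p = 0.834 by limma), and in the mutants it was higher at P4 by 0.49 (SE 0.116, adjusted p = 0.00619 by limma), just under the size limit. miR-142-3p differed by -0.27 in the controls (SE 0.0959, adjusted p = 0.0381 by limma) and by -0.46 in the mutants (SE 0.0959, adjusted p = 0.00260 by limma), both under the size limit. For both miRNAs these values depended on the scaling. Without normalization miR-223 was higher at P4 by 1.09 in the controls (adjusted p = 1.83e-07 by limma) and by 0.97 in the mutants (adjusted p = 1.13e-05 by limma), both called, where the medians of all expressed probes were 0.42 and 0.02. Its gene signal averaged 97.6 intensity units (SD 20.6, n = 4) in wt-E17 and 237 (SD 44.3, n = 4) in wt-P4. With 75th percentile scaling the difference of miR-223 in the controls was -0.075. For miR-142-3p the difference without normalization was 0.14 in the controls and -0.28 in the mutants, neither called. With 75th percentile scaling it was -1.02 in the controls (adjusted p = 5.58e-06 by limma) and -0.69 in the mutants (adjusted p = 0.00103 by limma), both called. The medians of all expressed probes were then -0.74 and -0.38. After quantile normalization no leukocyte miRNA was called by limma in either comparison, and the methods' t-test with the same limits called 0 as well. In each of them 3 of 3 had an unadjusted p under 0.05 for at least 1 probe, miR-155 at background among these. The share of all expressed miRNAs at that unadjusted limit was not counted. By adjusted p without the size limit, 2 of 3 passed in the controls, beside 154 of all 281. In the mutants 3 of 3 passed, beside 119 of 281. miR-155, at background, was among those that passed in both comparisons. The background was 20.3% of all expressed miRNAs called between the ages in the controls and 10.7% in the mutants. In the mutants 1 was called, in place of 0, when fl-E17 1, fl-E17 3, fl-E17 4 or fl-P4 3 was left out. It was miR-223, higher at P4, without fl-E17 1 (beside 32 of 280 called in either direction) or fl-P4 3 (32 of 281). It was miR-142-3p, lower at P4, without fl-E17 3 (39 of 280) or fl-E17 4 (33 of 281).

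The mutant effects at P4 and at E17 were compared by an interaction term. For the brighter probe of miR-223 the effect was larger at P4 by 0.46 (SE 0.164, adjusted p = 0.0782 by limma), and for the dimmer probe by 0.22 (SE 0.0619, adjusted p = 0.0288 by limma). For miR-142-3p the difference between the effects was -0.20 (95% interval -0.49 to 0.09, adjusted p = 0.392 by limma). None of the 3 was called, against 9.61% of all expressed miRNAs. An unadjusted p under 0.05 for at least 1 probe was found for 1 of 3, and the share of all expressed miRNAs at that limit was not counted. By adjusted p without the size limit, 1 of 3 passed as well, beside 60 of all 281. Without fl-P4 3, 1 of 3 was called, miR-223, beside 40 of all 281. The sign for both miRNAs depended on the scaling of the arrays. Without normalization the difference was -0.11 for miR-223, and with 75th percentile scaling it was 0.33 for miR-142-3p.

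The signals were then followed without any normalization, since the summed signal of fl-P4 was so much lower than that of wt-P4. The gene signal of miR-223 was 217, 302, 204 and 226 intensity units in the wt-P4 arrays and 239.8, 369, 367 and 283 in the fl-P4 arrays. The groups overlapped, in that wt-P4 2 lay above fl-P4 1 and fl-P4 4. On fl-P4 3, with 469 non-uniform spots, the gene signal and the spots disagreed. Its gene signal was among the highest, while the raw log2 median signal of the brighter probe, 8.29, was the lowest of all P4 arrays. The fl-P4 mean on the log2 scale was 0.40 higher, 1.32-fold (exact two-sided permutation test, p = 0.114, adjusted p = 0.190 over the 5 tests made of this kind).

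miR-142-3p had gene signals of 14.9, 17.8, 10.6 and 20.9 in wt-P4 and of 23.4, 32.8, 29.7 and 29.1 in fl-P4. Here the groups did not overlap without normalization. The difference was 0.88 on the log2 scale, 1.83-fold (exact two-sided permutation test, p = 0.0286, the smallest possible, adjusted p = 0.143), so it did not pass after adjustment, which with 1 such p among 5 tests could not be reached.

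At E17 the gene signal of miR-223 was 95.5, 94.2, 75.5 and 125 in wt and 111, 131, 118.0 and 101 in fl. That of miR-142-3p was 18.4, 15.4, 10.7 and 42.8 in wt and 51.3, 50.02, 38.2 and 33.7 in fl. In both miRNAs 1 control array, wt-E17 4, lay among or above mutant arrays, so the groups overlapped. The log2 difference was 0.25 for miR-223 (exact permutation p = 0.200, adjusted p = 0.250) and 1.17 for miR-142-3p (exact permutation p = 0.0857, adjusted p = 0.190). For miR-155 at P4, with 3.08 to 13.2 intensity units in wt and 5.06 to 11.7 in fl, it was 0.05 (exact permutation p = 0.914).

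**Figure D2:**
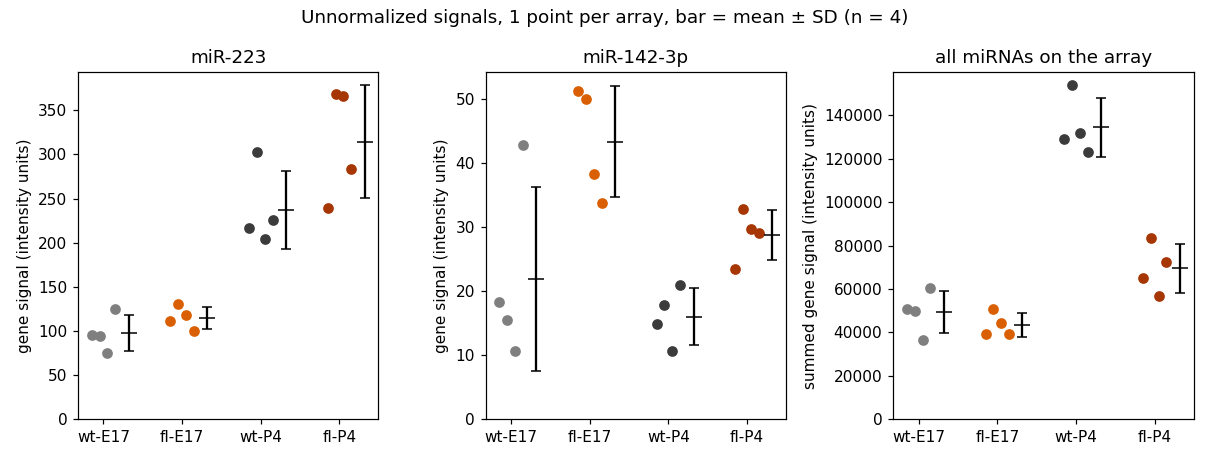
Unnormalized gene signal of miR-223 and miR-142-3p and the signal summed over all miRNAs, in intensity units (y axes), by group (x axes), with 1 point per array and bars for the mean ± SD (n = 4). In fl-P4 the summed signal is 0.513 times that of wt-P4, while miR-223 is 1.32-fold and miR-142-3p 1.83-fold that of wt-P4.

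As a share of the summed signal, both miRNAs were higher in the mutants at both ages. miR-223 made up 0.155% to 0.196% in wt-P4 and 0.369% to 0.645% in fl-P4, a 2.57-fold difference. The highest share was that of fl-P4 3, where gene signal and spots disagreed, and the other fl-P4 arrays ran from 0.369% to 0.441%. miR-142-3p made up 0.00804% to 0.0170% in wt-P4 and 0.0359% to 0.0522% in fl-P4, a 3.57-fold difference. At E17 the shares differed 1.34-fold for miR-223 and 2.53-fold for miR-142-3p, which made up 0.0294% to 0.0710% in wt-E17 and 0.0862% to 0.130% in fl-E17. In each of the 4 cases no mutant array overlapped a control array (exact permutation p = 0.0286, adjusted p = 0.0357 over 5 tests). How many of all 281 expressed miRNAs separated in this way was not counted. At P4 the summed signal of the mutants was 0.513 times that of the controls. With 75th percentile scaling, 203 of 281 expressed miRNAs were called higher in the mutant at P4. The share rises when the other miRNAs fall, and how far the mutant's loss of other signal entered the normalized values was not tested.

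The scaling of the arrays set the size of the normalized differences at P4. Without normalization miR-223 differed by 0.16 (adjusted p = 0.788 by limma) and miR-142-3p by 0.19 (adjusted p = 0.628 by limma), where the median of all expressed probes was -0.09. With 75th percentile scaling they differed by 1.04 and 1.08, where the median of all expressed probes was 0.79. Relative to that median, miR-223 was 0.79 higher with quantile normalization and 0.25 higher without normalization. The 75th percentile scaling shifts all probes of an array by the same amount, so relative to the median it gives the same value by construction. The direction did not turn under any of the 3 scalings at either age.

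At E17 the call of miR-142-3p did not hinge on the scaling in this way. It differed by 0.62 without normalization (adjusted p = 0.0296 by limma) and by 0.75 with 75th percentile scaling (adjusted p = 0.00312 by limma). Relative to the median of all expressed probes, it was 0.36 higher and miR-223 0.01 higher, in both settings alike by construction. With the background subtracted before normalization, miR-142-3p differed by 1.30 at E17 and by 1.35 at P4, and miR-223 by 0.99 at P4.

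**Figure D3:**
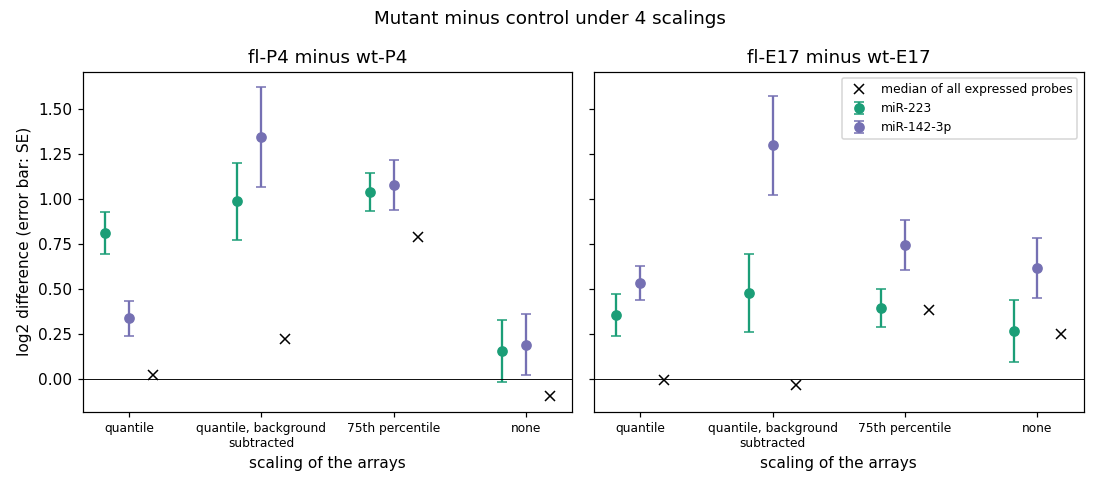
Log2 difference between mutant and control (y axes, error bars SE) of the brighter probes of miR-223 and miR-142-3p at P4 and E17 under 4 scalings of the arrays (x axes), with crosses for the median of all expressed probes. At P4 miR-223 goes from 0.81 with quantile normalization to 0.16 with none, and all points of both miRNAs lie above 0.

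miRNAs of red blood cells moved with miR-142-3p. Of the 3 erythroid miRNAs listed, miR-451, miR-144 and miR-486, all were expressed, and 1 of 3 was called higher in the mutant at E17 (miR-486, by 0.52, adjusted p = 0.0296 by limma) and 1 of 3 at P4 (miR-451, by 1.35, adjusted p = 0.0306 by limma), beside 3.56% and 10.3% of all expressed miRNAs. Their summed gene signal was 788 to 3283 intensity units in wt-E17, 2103 to 4787 in fl-E17, 205 to 1746 in wt-P4 and 453 to 1218 in fl-P4. miR-144 was detected on 1 of 4 wt-E17 arrays, on 2 of 4 fl-E17 arrays and on no P4 array, so it counted as expressed only through fl-E17. The array wt-E17 4, the control with the most miR-142-3p, also had the most erythroid signal of its group, and fl-E17 1 had the most of both among the mutants.

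The miRNAs whose brighter probe followed miR-142-3p most closely over the 16 arrays were miR-144 (r = 0.895), miR-486 (r = 0.889) and miR-451 (r = 0.832). With each group's mean taken off, r was 0.865, 0.735 and 0.398. These are descriptions over 16 arrays that share groups and slides, and miR-144 was not detected on most of these arrays. At P4 the parallel was less close, since wt-P4 2 had the highest erythroid signal of all P4 arrays and a miR-142-3p signal of 6.17, inside the range of the other controls. The log2 difference of miR-486 at P4 was 0.17 (adjusted p = 0.366 by limma). The part of red blood cell RNA, or of blood held in the nerve, in the difference of miR-142-3p was not tested.

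miR-223 did not follow the erythroid miRNAs, with r of -0.0120 to 0.0147 over the 16 arrays. The miRNAs most like it were miR-382* (r = 0.965, or 0.881 with group means taken off), miR-148a (r = 0.957, or 0.859) and miR-337-3p (r = 0.951, or 0.860). With miR-142-3p its r was 0.327. For miR-155 the most like were miR-221 (r = 0.894), miR-152 (r = 0.879) and miR-496 (r = 0.874), and with group means taken off r was 0.245, 0.226 and 0.288. As miR-155 was well above background on 0 of 16 arrays, these r values describe signals at the background and are given no reading. Its own probes correlated at only r = 0.373. Endothelial miR-126-3p moved with miR-223 (r = 0.873) and was called higher in the mutant at P4, by 0.60 (SE 0.172, adjusted p = 0.0123 by limma). At E17 miR-126-3p differed by 0.48 (adjusted p = 0.0932 by limma). The part of endothelium or of its share of the nerve in these values was not tested.

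**Figure D4:**
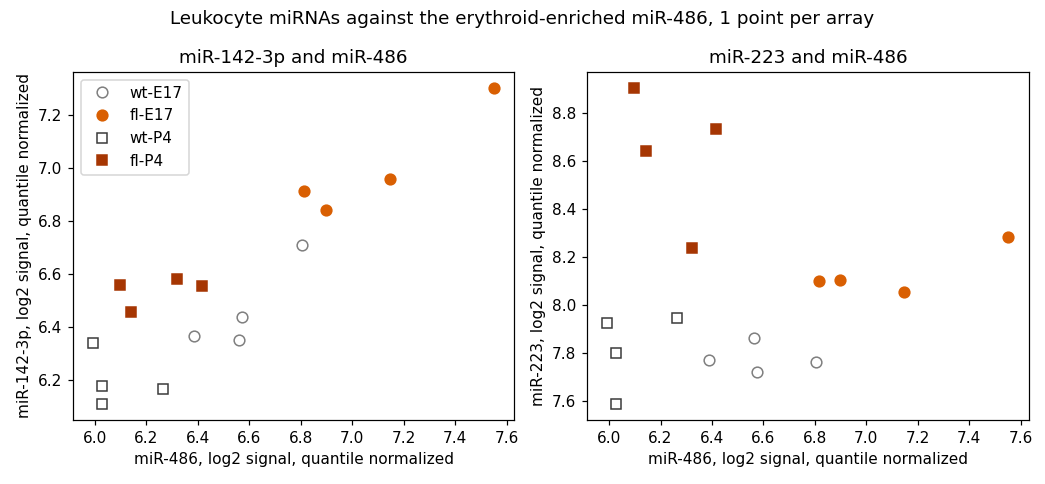
Log2 signal after quantile normalization of miR-142-3p (left y axis) and of miR-223 (right y axis) against that of the erythroid miR-486 (x axes), with 1 point per array, circles for E17, squares for P4 and filled symbols for mutants. miR-142-3p runs along with miR-486 (r = 0.889) and miR-223 does not (r = -0.0120).

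A further list held miRNAs with known roles in leukocytes that other cells also express. Of its 9 miRNAs, 8 were expressed, and at P4 0 of 8 were called higher by limma and 1, miR-181b, was called lower, beside 10.3% and 10.7% of all expressed miRNAs, with a median log2 difference of 0.09 beside 0.06 over all expressed miRNAs. At E17 0 of 8 were called in either direction, with a median of -0.05. miR-181b, of a family known from lymphocyte development, had a log2 difference of -0.71 at P4 (SE 0.0528, adjusted p = 1.09e-07 by limma) and gene signals of 145 to 165 in wt-P4 and 26.7 to 36.8 in fl-P4, without overlap. miR-29a, also abundant in other cells, differed by 0.40 at P4 (SE 0.111, adjusted p = 0.00959 by limma), under the size limit. miR-21, abundant in many cell types besides leukocytes, differed by 0.19 at P4 (95% interval -0.20 to 0.57, adjusted p = 0.427 by limma). miR-146a, induced by inflammatory signals, had a 95% interval of the difference of -0.11 to 0.11 at P4 (adjusted p = 0.999 by limma) and of -0.11 to 0.10 at E17 (adjusted p = 0.954 by limma).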

How the data were processed

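Total RNA of sciatic nerves was labelled with Cy3 and hybridised to 1-colour Agilent mouse miRNA arrays (design 021828 per the file headers). The deposited scanner files (Agilent Feature Extraction 10.5.1.1) hold intensity values as read by the authors, not normalized between arrays, and the authors also gave a table of geometric mean intensity values with present flags, used as an alternative. Samples were grouped by their labels. Signals of 13000 non-control spots were log2-transformed, quantile normalized over 16 arrays and averaged per probe without outlier-flagged spots. As in the study's methods, probes of miRNAs detected on at least 50% of the arrays of a group (681 probes, 281 miRNAs) were kept, and a model with a mean for each of the 4 groups was fitted (R 4.3.3, limma 3.58.1), where the study used a t-test. A miRNA was called where at least 1 probe passed and none was called the opposite way, and its brighter probe is the one printed. The fit was tested on simulated data. Gene signals were tested by exact permutation with Python 3.11.15. The number of arrays, 4 per group, limits the precision. Headers counted over 100 non-uniform spots on 2 arrays, whereas the study's methods give a lower number for all. The miRNAs and lists were chosen with earlier results of these data known. For each expressed leukocyte miRNA the 3 expressed miRNAs with the highest Pearson r over the 16 arrays were named, and from the lists those that a result turned on. Lists were named for erythroid, endothelial, glial, skeletal muscle and other leukocyte miRNAs. Of the 4 skeletal muscle miRNAs, 0 were called by limma at P4 and 0 at E17, beside 21% and 6.05% of all expressed miRNAs called in either direction. Their median log2 difference was 0.70 at P4 and 0.18 at E17, beside 0.06 and -0.00429 over all expressed miRNAs. Both endothelial miRNAs were expressed, and 1 was called higher at P4 and 0 at E17, beside 10.3% and 3.56% of all expressed miRNAs.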

Additional observations from a re-analysis of the deposited data

Results flagged for a closer look

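The mutant effect on miR-223 differed between the ages for its dimmer probe. The difference between the effects at P4 and E17 was 0.22 on the log2 scale (SE 0.0619, adjusted p = 0.0288 by limma), with a mutant effect of 0.41 at P4 and 0.19 at E17, and higher signals in 4 of 4 mutant arrays than in any control array at each age. It was under the size limit. Its sign turned without normalization between arrays, where it was -0.24, and the ages were on separate slides. No array was far from the other 3 of its group in log2 signal or gene signal of a detected leukocyte miRNA by Dixon's test.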

How the results depend on the processing

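The call of miR-223 at P4 was lost without normalization and with a log2 limit of 1. That of miR-142-3p at E17 was lost with a limit of 1, normexp correction, the methods' t-test with adjusted p, the mean over probes and without fl-E17 1, and held under each scaling. Counts over all 281 expressed miRNAs moved with the scaling as well. miR-155, at background, was among the miRNAs in each count of 3 below and in each count of 2 between the ages in controls. These calls of miR-155 are given no reading. The number of leukocyte miRNAs called at P4 between genotypes was 1, and it was 2 with background subtracted (69 of 281 called higher), 0 without normalization (1 of 281 higher), 3 with 75th percentile scaling (203 of 281 higher), 0 with a log2 limit of 1 (6 of 281 higher) and 3 with none (83 of 281 higher). At E17 it was 1, and 0 with normexp correction (7 of 281 higher), with a limit of 1 (0 of 281), with the methods' t-test (3 of 281) and with the mean over probes (3 of 281), and 2 without a limit (23 of 281). Between the ages in controls it was 0, and 2 with background subtracted (127 of 281 called in either direction), 1, miR-223, without normalization (165 of 281, 161 of them higher), 2 with 75th percentile scaling (227 of 281, 197 of them lower) and 2 without a limit (154 of 281). In mutants it was 0, and 3 with background subtracted (81 of 281), 1 without normalization (65 of 281), 2 with 75th percentile scaling (71 of 281), 2 with the authors' deposited intensities (44 of 281), 3 without a limit (119 of 281), 1 with array weights (31 of 281) and 1 without both arrays with many non-uniform spots (30 of 277), a setting chosen after seeing the data. For the difference between the mutant effects it was 0, and 1 with 75th percentile scaling (70 of 281), the authors' deposited intensities (43 of 281), no limit (60 of 281), array weights (57 of 281), and without those arrays (39 of 277). Leaving out 1 array gave 1 to 1 at P4, 0 to 1 at E17, 0 to 0 in controls, 0 to 1 in mutants and 0 to 1 for the difference between the effects. The 0 at E17 came without fl-E17 1, where 4 of 280 were called higher. For the mutants and for the difference between the effects, the backgrounds are those given in the Results. The causes were not tested.

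Signs turned as follows, mostly for small differences. With 75th percentile scaling, miR-155 differed by 0.82 (dimmer probe) between genotypes at P4, by -0.81 and -0.70 between the ages in controls and by -0.45 and -0.27 in mutants, and by 0.36 for the difference between the effects (dimmer probe). In the same setting miR-223 differed by -0.45 and -0.075 between the ages in controls, and miR-142-3p by 0.33 and 0.40 for the difference between the effects. Without normalization, that difference was -0.24 and -0.11 for miR-223 and -0.33 for miR-155, miR-142-3p differed by 0.14 and 0.20 between the ages in controls, and miR-155 by -0.00879 between genotypes at P4 and -0.043 between the ages in mutants. With background subtracted, the difference between the effects on miR-142-3p was 0.046 and 0.065. For miR-155 between genotypes at E17, values were -0.00717 and -0.00615 with normexp correction, -0.00411 with the authors' deposited intensities and -0.00557 with array weights. Between the ages in mutants miR-155 differed by -0.00593 with the authors' deposited intensities, and over the arrays left out in turn it ranged from -0.021 to 0.042 (dimmer probe), with a negative value without fl-P4 1. Its range between genotypes at P4 was -0.057 to 0.00587 (dimmer probe), with a positive value without fl-P4 4. Between the ages in controls miR-223 ranged from -0.00736 to 0.11 over the arrays left out in turn, with values below 0 without wt-P4 2 and without wt-P4 4.

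The gene signals' log2 differences did not pass after adjustment as measured. As shares of the summed signal, which scale each array by its own total, they passed for 2 miRNAs. They were then 1.36 for miR-223 and 1.84 for miR-142-3p at P4, and 0.43 and 1.34 at E17. How many of all 281 expressed miRNAs would pass in this way was not counted. The summed signal of fl-P4 was 0.513 times that of wt-P4, and the share of miR-155, at background, also differed 2.02-fold at P4. For miR-155 at P4 the mean raw log2 median signal gave -0.036. Leaving out 1 array gave 0.32 to 0.52 for miR-223, 0.69 to 1.02 for miR-142-3p and -0.403 to 0.30 for miR-155 at P4, and 0.14 to 0.38 for miR-223 and 0.89 to 1.56 for miR-142-3p at E17, and none of these passed after adjustment. With the replicate block, the count of leukocyte miRNAs called was 1 at P4 and 1 at E17, and no call changed. The same-numbered arrays correlated in their deviations from group means at -0.52 to 0.09 at E17 and at -0.28 to 0.46 at P4, so the numbers were not taken to pair the mice.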
